A study of Homo sapiens with 80 samples.

Results

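Jurkat T cells held at 9 g for 60 min (group hypg60) are compared here with Jurkat T cells kept at 1 g for 60 min (group Ctrl60). The libraries were taken by their treatment label, which gave 6 of hypg60 and 6 of Ctrl60, 12 of the 80 libraries of the series. The study measured, by RNA sequencing, how the transcriptome of a T cell line responds to short spells of raised gravity. Its cells, all of Jurkat clone E6-1, a human T cell leukemia line that is 1 clone, were filled into serological pipettes, kept upright or spun on a pipette centrifuge and lysed straight afterwards. Total RNA was depleted of ribosomal RNA and sequenced as strand-specific libraries. Counts of read pairs per gene were deposited without normalization. Ctrl60 stayed in the pipette at 1 g for as long as hypg60 was spun, and the column names of the count table add HEPES, a pH buffer, to Ctrl60 but not to hypg60, while the sample titles do not. Any effect of such a buffer and that of 9 g cannot be told apart in this comparison. The 15 min control at 1 g (Ctrl, 6 libraries), whose column names do not mention HEPES, was therefore set beside it. For comparison, hypg9 (6 libraries) had 6 min at 1 g, then 9 min at 9 g, and Ctrl as its control, and A-heat (4 libraries, 42 degC) was compared with A-Ctrl (4 libraries), an experiment run in another vessel and at another cell density, with a heat exposure much shorter than 60 min. Nothing in the sources says that libraries came from separate cultures, so the p-values measure the spread between libraries only.

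Total counts per library ran from 26774928 to 33866931 in Ctrl60, with a median of 31208522.5, and from 25769027 to 35705594 in hypg60, with a median of 32023081. A gene with no count in the smallest of the 12 libraries could have been present at up to 0.116 CPM, a unit that scales a gene's counts to its library's total, a limit that covers counting error only. All 12 markers of the T lineage had counts in every library, and their summed level was 3808 to 4181 CPM in Ctrl60 and 3608 to 3969 CPM in hypg60, with LCK, the kinase next to the T cell receptor, taking the most counts. Of these 12, 3 were called lower at 9 g, CD2, TRAC and TRBC1, at -0.42, -0.23 and -0.22, and 0 higher. Of all genes tested, 13.0% were called lower and 17.1% higher. Of the 5 myeloid, 4 erythroid and 4 epithelial markers, each stayed under 1 CPM in all 12 libraries, and CD14, the myeloid marker with the most counts, was called higher at 0.97 (adjusted p = 0.0068). TRAC, TRBC1 and CD14 were named after their values were seen. Of B cell markers, CD79A was at 48.7 to 64.4 CPM, while MS4A1 and PAX5 were under 1 CPM. Of the 4 fibroblast markers, COL1A1 was at 4.74 to 6.87 CPM and the others were under 1 CPM. In bulk RNA, fewer cells of a kind and less RNA per cell cannot be told apart.

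Heat shock genes encode chaperones that hold or refold damaged proteins, and heat shock factor 1 switches on their transcription within minutes when unfolded proteins bind the chaperones that keep this factor inactive. T cells also carry immediate early genes, whose transcription factors appear soon after the T cell receptor, growth factors or stress activate kinases. Mitochondria add transcripts of their own small genome, read from both of its strands by a polymerase that differs from those of the nucleus.

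Some libraries stood apart before any test. Across the genes tested, the median rank correlation of a library's log2 levels with the others of its group was 0.986 for hypg60 replicate 44, where the remaining hypg60 libraries reached 0.994 to 0.995, and 0.990 for Ctrl60 replicate 9. On the first principal component, which held 44.6% of the variance, hypg60 replicate 44 lay at -4.35, between the other hypg60 libraries (22.8 to 40.3) and the Ctrl60 libraries (-37.8 to -17.1). The RNA of the signal recognition particle, RN7SL1, took 3.67% of all counts in hypg60 replicate 44 and 7.11% in hypg60 replicate 48, against 4.78% to 5.90% in the other hypg60 libraries and 4.95% to 5.74% in Ctrl60. The mean GC content of genes, weighted by counts, was lowest in hypg60 replicate 44 (51.5%) and highest in hypg60 replicate 48 (53.5%), with Ctrl60 at 52.1% to 52.8%. Of the 2125 genes called lower at 9 g, 67.6% had their highest hypg60 level in replicate 44 and 57.3% their lowest in replicate 48. Results are therefore given with all 12 libraries and, where it matters, without them.

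Which genes differ after 60 min at 9 g was tested over 16318 genes with enough counts. At an adjusted p under 0.05, 4916 genes (30.1%) were called, 2791 (17.1%) higher and 2125 (13.0%) lower, and the median log2 fold change over all genes tested was -0.02. Asking also for a log2 fold change beyond 1 or -1 left 548 genes (3.36%), 500 higher and 48 lower. The groups of 6 did not overlap in CPM for 2373 genes (14.5%). Without hypg60 replicate 44 the calls were 3482 higher and 3637 lower, and with Ctrl60 replicate 9 left out as well they were 3567 and 3741. The number lower also moved by more than 1.5 times when Ctrl60 replicate 10 (1249), Ctrl60 replicate 12 (1388) or hypg60 replicate 45 (1308) was left out, and without Ctrl60 replicate 9 the calls were 3269 higher and 1584 lower. The split depended on scaling, with 3364 higher and 1471 lower after scaling by total counts, 2727 and 3970 with 3 surrogate variables, 2522 and 3730 with an offset for GC content, and 1958 and 3025 with an offset for exon length. Median GC content was 54.2% among the higher genes, 44.2% among the lower and 49.4% among all tested, and the part of base composition in the calls beyond these offsets was not tested. Against Ctrl in place of Ctrl60, 2960 genes were higher and 2344 lower. In the model over all 60 libraries of the 9 g experiment, 3025 genes were higher and 1868 lower. In that model without hypg15 replicate 75, chosen after seeing the data, 3712 genes were higher and 3466 lower. Where a range in brackets follows the median of a gene list, it runs over 23 alternatives, 2 of them chosen after seeing the data.

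**Figure D1:**
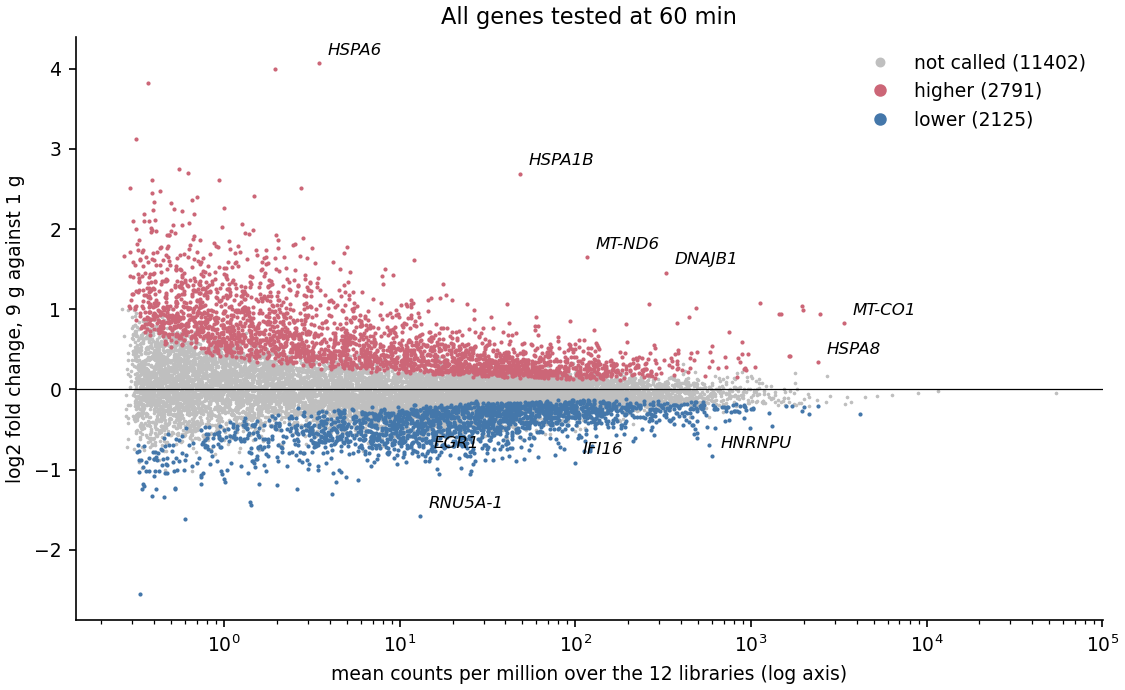
Each point is 1 of the 16318 genes tested, with its mean CPM over the 12 libraries on a log axis and its log2 fold change of hypg60 against Ctrl60 on the vertical axis, coloured by call. HSPA6, HSPA1B, DNAJB1 and MT-ND6 lie far above the line at 0, and more genes pass a log2 fold change of 1 upwards (500) than downwards (48).

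The controls at 1 g were compared directly to see how far waiting time and the buffer in the column names might bear on this. Ctrl60 against Ctrl gave 2 called genes of 16109 (0.0124%), 1 higher (0.00621%), which also passed the stricter rule (0.00621%), and 1 lower (0.00621%), with 578 at an unadjusted p under 0.05 in edgeR, 11 called by DESeq2 and 7 after scaling by total counts. With 1 library left out, tried after seeing the data, 1 gene was called without Ctrl replicate 1, 4 or 6 and 3 without Ctrl60 replicate 9. The called genes were EGR1, at 1.16 (SE 0.06, adjusted p = 3.0e-07), and PHF13, a reader of histone marks, at -0.28 (SE 0.04, adjusted p = 0.01). The call of PHF13 was the one not made without Ctrl replicate 1, 4 or 6. PHF13, named after its values were seen, was 54.6 to 60.9 CPM in Ctrl60 and 77.9 to 84.0 CPM in hypg60, and rose by 0.47 against Ctrl60 but by 0.19 against Ctrl.

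The HSP70 genes HSPA1B, HSPA6 and HSPA1A rose, while HSPA4 and HSPA4L, of the same list of inducible chaperones, were not called higher. HSPA1B, a stress-inducible HSP70, was at 12.2 to 13.2 CPM with a median of 12.7 in Ctrl60 and at 70.0 to 104 CPM with a median of 80.4 in hypg60. Every hypg60 library lay above every Ctrl60 library, and the log2 fold change was 2.69 (SE 0.08, adjusted p = 2.7e-11). HSPA6, an HSP70 that most cells express only under strong stress, was at 0.223 to 0.578 CPM with a median of 0.383 in Ctrl60 and at 5.97 to 7.28 CPM with a median of 6.57 in hypg60. Its groups did not overlap either, and with 4.07 (SE 0.16, adjusted p = 4.6e-10) it had the highest change of the tested chaperones; it lies outside the rule for named genes and was chosen after its values were seen. HSPA1A was at 0.0943 to 0.443 CPM in Ctrl60 and 1.36 to 2.33 CPM in hypg60, a log2 fold change of 2.61 (SE 0.28, adjusted p = 1.3e-05). HSPA1A and HSPA1B are near-identical copies, read pairs that match both may have been dropped or misplaced, and their separate levels are uncertain.

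DNAJB1, the HSP40 that delivers unfolded clients to HSP70, was at 161 to 183 CPM with a median of 172 in Ctrl60 and at 469 to 512 CPM with a median of 485 in hypg60. The groups were far apart, with a log2 fold change of 1.46 (SE 0.05, adjusted p = 2.0e-10). SERPINH1, the collagen chaperone HSP47 of the endoplasmic reticulum, was at 10.3 to 14.9 CPM with a median of 13.0 in Ctrl60 and 20.7 to 24.2 CPM with a median of 22.2 in hypg60. It rose by 0.77 (SE 0.10, adjusted p = 5.5e-05) with no overlap between groups. HSPA8, the constitutive HSP70, was at 2013 to 2212 CPM with a median of 2075 in Ctrl60 and 2542 to 2960.5 CPM with a median of 2698 in hypg60. It rose by 0.34 (SE 0.07, adjusted p = 0.0029), again with no overlap, though the call ended with the length offset at 0.36.

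**Figure D2:**
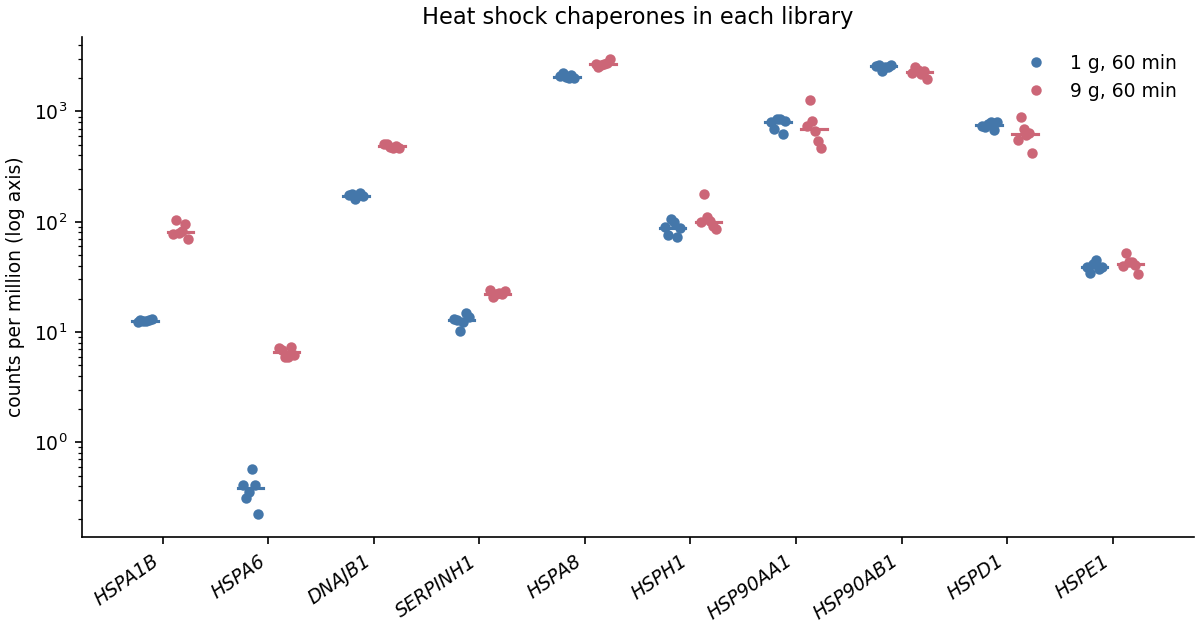
Points are CPM of chaperone genes in each of the 6 Ctrl60 and 6 hypg60 libraries on a log axis, and bars are group medians. HSPA1B, HSPA6, DNAJB1, SERPINH1 and HSPA8 separate the groups, while the groups of HSPH1, HSP90AA1, HSP90AB1, HSPD1 and HSPE1 overlap.

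Of the 30 inducible heat shock chaperones and co-chaperones, 27 were tested, of which 10 rose, 3 fell and 14 did not pass, with a median of 0.06 (-0.04 to 0.12); the median turned to -0.03 with the GC offset and -0.04 with the length offset. Among all genes tested 17.1% were higher and 13.0% lower. HSPH1, an exchange factor for HSP70, was 72.8 to 106 CPM in Ctrl60 and 86.3 to 180.2 CPM in hypg60 and did not pass (0.28, SE 0.13, adjusted p = 0.13). The value of HSPH1 was 0.13 without hypg60 replicate 44, its highest library, and it passed with the GC offset at 0.45. Of the cytosolic HSP90 genes, HSP90AA1, the stress-inducible form, did not pass (-0.11, SE 0.16, adjusted p = 0.65). HSP90AB1, the constitutive form, fell by 0.21 (SE 0.06, adjusted p = 0.024), a call that ended in 9 of 23 alternatives, 6 of them leaving out 1 library, Ctrl60 replicate 7, 8, 10 or 12 or hypg60 replicate 45 or 46 (values of -0.20 to -0.17). HSP90AB1 was at -0.15 against Ctrl, where the call ended, and at -0.12 with surrogate variables, where it did not. CACYBP, a partner of the HSP90 system in protein degradation, fell by 0.50 (SE 0.09, adjusted p = 0.0012), or -0.30 with the GC offset. HSPD1 and HSPE1, the chaperonin pair of the mitochondrial matrix, were at -0.29 (SE 0.11, adjusted p = 0.064) and 0.05 (SE 0.08, adjusted p = 0.67); HSPD1 passed in 9 of 23 alternatives, among them without hypg60 replicate 44 (-0.38).

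Of 9 heat shock factors and partners, 1 rose, 1 fell and 7 did not pass, with a median of -0.04 (-0.14 to 0.03), a sign that 3 of 23 alternatives turned. Those called made 22.2%, beside 30.1% of all genes tested. The gene of heat shock factor 1 itself, HSF1, was 277 to 303 CPM in Ctrl60 and 263 to 345 CPM in hypg60 and did not pass (0.07, SE 0.08, adjusted p = 0.54). Without hypg60 replicate 44 HSF1 passed at 0.14, and its sign turned with surrogate variables (-0.04) and the GC offset (-0.10).

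Promoter sequences of 5 of the higher chaperones follow. They come from RefSeq on GRCh38.p14 and run from 250 bases before to 50 bases after a gene's start. Capitals mark the pair of inverted units read by heat shock factors, GAANNTTC or TTCNNGAA, each of which reads the same on both strands, and overlapping pairs join into runs of 3 units, GAANNTTCNNGAA or TTCNNGAANNTTC. HSPA1B lies at chr6:31827488-31827787 on the plus strand, HSPA6 at chr1:161524290-161524589 on the plus strand, DNAJB1 at chr19:14518348-14518647 on the minus strand, SERPINH1 at chr11:75562003-75562302 on the plus strand and HSPA8 at chr11:123062087-123062386 on the minus strand. For DNAJB1 (3 windows) and SERPINH1 (2 windows) the window with the most pairs was chosen after looking.
HSPA1B: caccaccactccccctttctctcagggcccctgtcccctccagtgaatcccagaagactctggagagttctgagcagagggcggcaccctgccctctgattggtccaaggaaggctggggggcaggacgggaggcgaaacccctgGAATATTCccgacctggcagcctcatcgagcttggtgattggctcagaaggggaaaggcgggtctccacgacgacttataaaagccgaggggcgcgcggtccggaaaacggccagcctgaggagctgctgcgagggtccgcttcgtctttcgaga
HSPA6: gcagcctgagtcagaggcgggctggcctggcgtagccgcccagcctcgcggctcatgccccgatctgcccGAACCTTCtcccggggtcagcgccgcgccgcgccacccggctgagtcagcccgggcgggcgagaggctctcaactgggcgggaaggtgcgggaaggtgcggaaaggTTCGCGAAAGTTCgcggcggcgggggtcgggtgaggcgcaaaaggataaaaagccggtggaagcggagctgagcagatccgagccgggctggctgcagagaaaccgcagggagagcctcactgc
DNAJB1: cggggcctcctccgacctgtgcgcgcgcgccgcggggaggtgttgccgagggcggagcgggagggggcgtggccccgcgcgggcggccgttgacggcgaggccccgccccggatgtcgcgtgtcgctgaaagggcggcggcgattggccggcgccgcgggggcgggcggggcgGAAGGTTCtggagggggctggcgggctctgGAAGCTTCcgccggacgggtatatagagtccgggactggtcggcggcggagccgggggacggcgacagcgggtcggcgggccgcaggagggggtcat
SERPINH1: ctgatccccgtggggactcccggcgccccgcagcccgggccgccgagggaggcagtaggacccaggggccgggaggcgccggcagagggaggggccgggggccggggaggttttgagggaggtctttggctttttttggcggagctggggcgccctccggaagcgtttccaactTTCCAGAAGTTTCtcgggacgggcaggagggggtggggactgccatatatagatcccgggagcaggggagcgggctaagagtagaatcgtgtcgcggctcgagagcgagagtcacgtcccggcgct
HSPA8: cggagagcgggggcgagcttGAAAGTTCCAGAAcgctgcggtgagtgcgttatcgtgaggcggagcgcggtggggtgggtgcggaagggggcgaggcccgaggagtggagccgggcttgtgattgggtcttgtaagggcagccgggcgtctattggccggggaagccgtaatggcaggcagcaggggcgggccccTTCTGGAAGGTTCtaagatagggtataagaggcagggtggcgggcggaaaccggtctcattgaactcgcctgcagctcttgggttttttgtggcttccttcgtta
Of the 10 higher chaperones, 9 were in the promoter table (JMJD6 was not), and 8 of the 9 held at least 1 pair (88.9%) and 5 a run of 3 units (55.6%). Of the 17 other tested members, 15 were in the table, with a pair in 8 (53.3%) and a run in 4 (26.7%). Among all 35116 promoter windows of this length, 13.5% held a pair and 0.49% a run, and of the 27305 genes they belong to, 16.2% and 0.608% did in at least 1 window. Of the 10828 tested genes with a window, 13.3% held a pair and 0.462% a run in at least 1 window. The list was drawn up as genes that heat shock factor 1 drives, so its excess of matches over all genes is no result of these data. A match describes the letters in the window, and binding was not measured.

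Of 14 genes of the chaperonin TRiC, which folds actin and tubulin, and of prefoldin, which hands clients to it, 1 rose, 10 fell and 3 did not pass, with a median of -0.21 (-0.30 to -0.17). That is 78.6% called, beside 30.1% of all genes tested. PFDN4, a prefoldin subunit, was 17.0 to 20.3 CPM with a median of 19.3 in Ctrl60 and 8.82 to 14.9 CPM with a median of 10.8 in hypg60. The groups did not overlap (-0.77, SE 0.11, adjusted p = 1.2e-04; -0.46 with the GC offset). PFDN2 fell by 0.54 (SE 0.07), whereas PFDN5 rose by 0.62 ± 0.10 from a median of 5.44 to 8.98 CPM. CCT7, the TRiC subunit with the most counts, did not pass (-0.14, SE 0.08, adjusted p = 0.18), though it did with surrogate variables (-0.17) and the GC offset (-0.25).

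Of 21 genes of the unfolded protein response, which senses misfolding in the endoplasmic reticulum, 2 rose, 2 fell and 17 did not pass, with a median of -0.05 (-0.09 to -0.01). Its main chaperone HSPA5 (BiP) was 359.9 to 388 CPM in Ctrl60 and 329 to 388 CPM in hypg60, groups that overlap (-0.08, SE 0.05, adjusted p = 0.23). XBP1, the spliced transcription factor of this response, fell by 0.28 (SE 0.06), and the call ended with the GC offset (-0.12). Of 47 tested proteasome subunits, 1 rose, 25 fell and 21 did not pass, with a median of -0.21 (-0.26 to -0.17). The proteasome list was called at 55.3% and the unfolded protein response at 19.0%, beside 30.1% of all genes tested. PSMD7, of the lid, was 96.4 to 112 CPM in Ctrl60 and 60.1 to 87.2 CPM in hypg60, without overlap (-0.58, SE 0.08, adjusted p = 1.6e-04).

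Of 21 tested genes of the integrated stress response, in which ATF4 switches on amino acid and survival genes, 28.6% were called, beside 30.1% of all genes tested. Of these 21, 2 rose, 4 fell and 15 did not pass, with a median of 0.01 (-0.10 to 0.04), a sign that 7 of 23 alternatives turned (-0.10 with the GC offset). ATF4 was 493 to 552 CPM in Ctrl60 and 526 to 608 CPM in hypg60 (0.03, SE 0.06, adjusted p = 0.76), and ATF3, another stress-induced factor, was at 0.02 (SE 0.07, adjusted p = 0.86). PPP1R15A, which ends the response by dephosphorylating eIF2, was 34.4 to 38.4 CPM with a median of 35.9 in Ctrl60 and 26.9 to 30.0 CPM with a median of 28.6 in hypg60. The groups did not overlap (-0.38, SE 0.06, adjusted p = 4.5e-04). The stress genes DDIT3 (0.26, SE 0.09, adjusted p = 0.036) and DDIT4 (0.17, SE 0.05, adjusted p = 0.029) passed, but their calls ended in 12 and 8 of 23 alternatives, among them leaving out Ctrl60 replicate 7 (0.22 and 0.17) and hypg60 replicates 43, 46, 47 or 48 in turn (DDIT3 0.25 to 0.27, DDIT4 0.15 to 0.17). DDIT3 also lost its call without Ctrl60 replicate 11 (0.25). The values shrank to 0.17 and 0.02 with the GC offset and to 0.10 and 0.10 with the length offset, where neither passed. Of 20 aminoacyl-tRNA synthetases, which charge tRNAs, 0 rose, 9 fell and 11 did not pass, with a median of -0.16 (-0.20 to -0.12), with NARS1 at -0.50 (SE 0.12, adjusted p = 0.0061).

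Of 18 tested NRF2 targets, 0 rose, 4 fell and 14 did not pass, with a median of -0.19 (-0.22 to -0.13). Called shares were 22.2% for NRF2, 33.3% for metal, 33.3% for hypoxia and 11.8% for glycolytic genes, beside 30.1% of all genes tested. Among all genes tested 17.1% were higher and 13.0% lower. PRDX1, a peroxidase, was 551 to 604 CPM in Ctrl60 and 466 to 517 CPM in hypg60, without overlap (-0.28, SE 0.05, adjusted p = 8.1e-04). TXNRD1, thioredoxin reductase, was at -0.18 (SE 0.11, adjusted p = 0.24) and passed without hypg60 replicate 44 (-0.28). HMOX1, heme oxygenase and a classic oxidant-induced gene, had 0 counts in all 12 libraries. Of 6 tested metallothioneins and metal regulators, 1 rose, 1 fell and 4 did not pass, with a median of -0.23 (-0.38 to -0.14), with MT2A, which buffers zinc, at -0.30 (SE 0.08, adjusted p = 0.0089), or -0.51 with the length offset. Of 21 tested hypoxia genes, 0 rose, 7 fell and 14 did not pass, with a median of -0.16 (-0.23 to -0.12). HIF1A, the oxygen-regulated factor, was 23.6 to 41.2 CPM with a median of 26.8 in Ctrl60 and 11.4 to 25.6 CPM with a median of 13.8 in hypg60. Its groups overlapped through hypg60 replicate 44, its highest hypg60 library (-0.97, SE 0.17, adjusted p = 6.3e-04; -1.14 without it). Of 17 glycolytic enzymes, 0 rose, 2 fell and 15 did not pass, with a median of -0.09 (-0.22 to -0.04), with GAPDH at -0.07 (SE 0.10, adjusted p = 0.64); without hypg60 replicate 44 GAPDH was at 0.00, and with surrogate variables it passed at -0.15.

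Of 18 tested genes of p53 and its targets, 3 rose, 3 fell and 12 did not pass, with a median of -0.06 (-0.16 to -0.0028). Called shares here were 33.3% for p53, 28.6% for BCL2, 40.0% for NF-kB and 47.4% for interferon genes, beside 30.1% of all genes tested. XPC, a damage sensor of nucleotide excision repair, fell by 0.49 (SE 0.07), and CDKN1A, the cell cycle inhibitor p21, was at 0.21 (SE 0.12, adjusted p = 0.21). Of 14 tested BCL2 family genes, 3 rose, 1 fell and 10 did not pass, with a median of 0.06 (-0.09 to 0.12), a sign that turned with the GC offset (-0.09) and with surrogate variables. MCL1, a short-lived survival factor, rose by 0.35 ± 0.10 and BCL2L11 (BIM), which promotes cell death, by 0.36 ± 0.08 (0.22 against Ctrl). Of 15 tested NF-kB factors and targets, 4 rose, 2 fell and 9 did not pass, with a median of -0.07 (-0.08 to -0.01). NFKBID, a nuclear regulator of NF-kB, was 8.30 to 9.81 CPM with a median of 8.71 in Ctrl60 and 14.9 to 17.0 CPM with a median of 15.8 in hypg60. Ranges were separate (0.79, SE 0.08, adjusted p = 9.2e-06), while NFKBIA, the cytosolic inhibitor, was at -0.07 (SE 0.06, adjusted p = 0.43) and passed with the GC offset (-0.19). Of 19 tested interferon-stimulated genes, 3 rose, 6 fell and 10 did not pass, with a median of -0.13 (-0.24 to -0.08), with IFI16, a sensor of DNA, at -0.91 (SE 0.17, adjusted p = 0.0011).

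Of 19 tested sterol synthesis genes, 1 rose, 1 fell and 17 did not pass, with a median of -0.07 (-0.11 to -0.02). Sterol, lysosomal and pH genes were called at 10.5%, 10.7% and 33.3%, beside 30.1% of all genes tested. Of 28 tested lysosomal genes, 2 rose, 1 fell and 25 did not pass, with a median of 0.04 (-0.08 to 0.09), or -0.08 with the GC offset, among them NPC1, which exports cholesterol, at 0.36 (SE 0.05, adjusted p = 1.0e-04). Of 12 tested pH regulators, 1 rose, 3 fell and 8 did not pass, with a median of 0.00 (-0.04 to 0.05), a sign that 14 of 23 alternatives turned.

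Of 26 tested immediate early genes, 11 rose, 2 fell and 13 did not pass, with a median of 0.15 (0.04 to 0.24), or 0.04 with the GC offset. That is 50.0% called, beside 30.1% of all genes tested, 17.1% higher and 13.0% lower. KLF2, a factor of T cell quiescence, was 7.86 to 11.6 CPM with a median of 10.4 in Ctrl60 and 13.7 to 17.8 CPM with a median of 16.3 in hypg60. Every hypg60 library was above every Ctrl60 library (0.68, SE 0.11, adjusted p = 3.9e-04). EGR1, an early factor of receptor signalling, was 17.0 to 18.3 CPM with a median of 17.8 in Ctrl60 and 9.82 to 10.9 CPM with a median of 10.2 in hypg60. EGR1 thus fell without overlap against Ctrl60 (-0.83, SE 0.07, adjusted p = 1.9e-06). Its direction turned to 0.33 against Ctrl, in which it was 6.88 to 8.99 CPM. FOS (1.12 to 1.78 CPM in Ctrl60 and 1.20 to 2.21 CPM in hypg60; 0.17, SE 0.17, adjusted p = 0.48) and JUN, its partner in AP-1 (0.20, SE 0.09, adjusted p = 0.099), did not pass, though JUN did in 4 of 23 alternatives, among them without Ctrl60 replicate 12 (0.26). JUN was at 0.01 against Ctrl and 0.05 with the GC offset. IER2 was at -0.06 (SE 0.06, adjusted p = 0.43) and passed with the GC offset (-0.21). MYC, the growth factor-responsive regulator, was at -0.12 (SE 0.05, adjusted p = 0.085) and passed in 6 of 23 alternatives, among them without hypg60 replicate 47 (-0.14), against Ctrl (-0.21) and with the GC offset (-0.24). Of 12 tested phosphatases and inhibitors that switch off MAP kinases, 3 rose, 4 fell and 5 did not pass, with a median of -0.09 (-0.20 to -0.02), with DUSP2, a phosphatase of activated lymphocytes, at -0.44 (SE 0.07, adjusted p = 3.2e-04), or -0.26 against Ctrl.

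Genes of the mitochondrial genome were mostly higher. They took 1.16% to 1.38% of all counts in Ctrl60, with a median of 1.28%, and 2.12% to 2.67% in hypg60, with a median of 2.27%. No library of hypg60 fell within the Ctrl60 range. The share was 1.33% to 1.60% in Ctrl, also below hypg60. Of 28 tested genes, 21 rose, 1 fell and 6 did not pass, with a median of 0.93 (0.69 to 0.99), beside -0.02 over all genes tested. The share called was 78.6%, beside 30.1% of all genes tested. MT-CO1, a core subunit of cytochrome c oxidase, was 2199.8 to 2676 CPM with a median of 2407 in Ctrl60 and 3699.8 to 5187 CPM with a median of 4196 in hypg60. No library of one group reached the other (0.82, SE 0.10, adjusted p = 2.9e-05). MT-ND5 and MT-ND4L, subunits of complex I, rose by 1.08 ± 0.10 and 1.07 ± 0.08. The calls of MT-CO1 and MT-ND5 were not made in the model over all 60 libraries of the 9 g experiment, in which hypg15 replicate 75 has 0 counts on this genome, and were made without that library (0.82 and 1.07).

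Values by strand of this genome were looked at after the values were seen. The 8 tested genes of the minus strand all rose, with a median of 1.46, and of 20 on the plus strand 13 rose and 1 fell, with a median of 0.87. Of the 8, 7 were tRNA genes, which together were at 9.67 to 12.6 CPM in Ctrl60. On the plus strand, 11 of 12 protein-coding genes rose, with a median of 0.94. Of the 6 plus-strand tRNA genes 2 rose and 1 fell, with a median of 0.17. MT-ND6, the complex I subunit and the protein-coding gene of the minus strand, was 37.2 to 70.6 CPM with a median of 55.1 in Ctrl60 and 108 to 247 CPM with a median of 179.7 in hypg60. Its groups did not overlap (1.65, SE 0.18, adjusted p = 1.4e-05), and against Ctrl its change was 1.10. Strand went with kind of gene and level here, and the difference between strands was not tested.

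**Figure D3:**
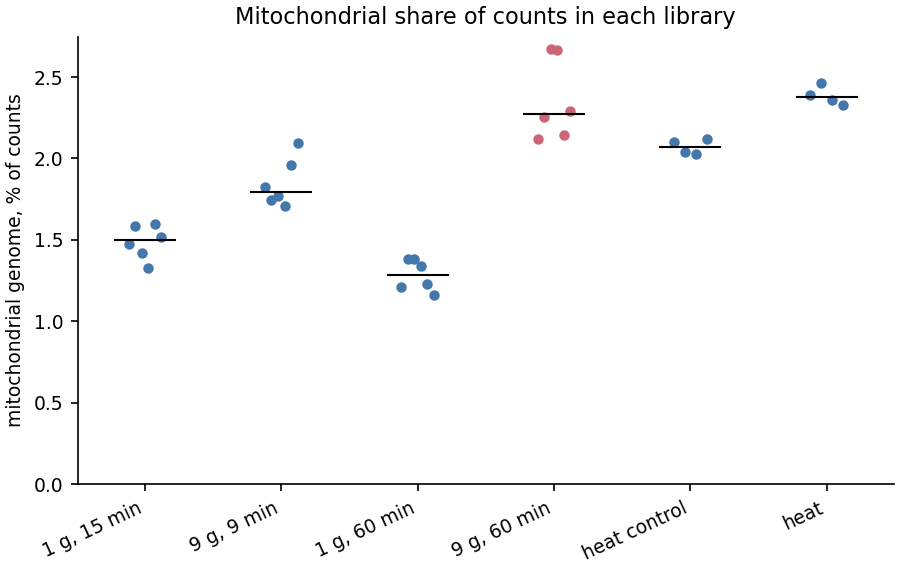
Points are the share of counts that fell on the mitochondrial genome in each library, as a percentage, for 6 groups, and bars are group medians. The hypg60 libraries (2.12% to 2.67%) lie above the Ctrl60 libraries (1.16% to 1.38%). In the heat experiment, at 1 g, A-Ctrl was at 2.03% to 2.12% and A-heat at 2.33% to 2.47%.

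Of 76 tested nuclear subunits of oxidative phosphorylation, 2 rose, 39 fell and 35 did not pass, with a median of -0.21 (-0.30 to -0.16). Among all genes tested, 17.1% were higher and 13.0% lower. NDUFB6, of complex I, was 25.3 to 30.8 CPM in Ctrl60 and 15.5 to 23.1 CPM in hypg60 (-0.66, SE 0.08, adjusted p = 4.7e-05), a call not made in the model over all 60 libraries (-0.66) but made there without hypg15 replicate 75 (-0.67). NDUFA13, of the same complex, rose by 0.57 ± 0.12 from a median of 4.17 to 6.07 CPM. Of 77 tested mitochondrial ribosomal proteins, 1 rose, 40 fell and 36 did not pass, with a median of -0.21 (-0.32 to -0.17), with MRPS9 at -0.73 (SE 0.10, adjusted p = 1.2e-04). Of 83 tested cytosolic ribosomal proteins, 1 rose, 48 fell and 34 did not pass, with a median of -0.21 (-0.27 to -0.18). RPL6, of the large subunit, was 556 to 625 CPM with a median of 592 in Ctrl60 and 284 to 554 CPM with a median of 394 in hypg60, groups that did not overlap (-0.61, SE 0.10, adjusted p = 4.5e-04).

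Of 17 hnRNP genes, whose proteins coat nascent RNA, 0 rose, 14 fell and 3 did not pass, with a median of -0.39 (-0.45 to -0.28). Higher and lower genes made 17.1% and 13.0% of all genes tested. HNRNPU, a nuclear scaffold protein, was 695 to 824 CPM with a median of 752 in Ctrl60 and 266 to 709.8 CPM with a median of 416 in hypg60. Its groups overlapped (-0.83, SE 0.15, adjusted p = 0.0011). HNRNPA1, the member with the most counts, fell by 0.48 (SE 0.10). Of 22 tested SR proteins, CLK kinases and partners, which set splice site choice, 3 rose, 8 fell and 11 did not pass, with a median of -0.19 (-0.24 to -0.07). CLK1, a kinase of SR proteins, was 16.2 to 25.6 CPM with a median of 16.4 in Ctrl60 and 24.9 to 47.4 CPM with a median of 33.2 in hypg60 and rose by 0.87 (SE 0.13, adjusted p = 1.7e-04). SRSF7 fell by 0.41 (SE 0.06; -0.26 with the GC offset) and SRRM1, a coactivator of splicing, by 0.48 (SE 0.12; -0.30 with surrogate variables).

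Of 14 nonsense-mediated decay factors, 0 rose, 5 fell and 9 did not pass, with a median of -0.02 (-0.14 to 0.02), a sign that 4 of 23 alternatives turned, with MAGOH, of the exon junction complex, at -0.55 (SE 0.12, adjusted p = 0.0029). Called shares were 35.7% for decay factors and 29.2% for the elongation genes below, beside 30.1% of all genes tested. For the small RNAs below they were 52.6% (spliceosomal, 7SK and 7SL), 23.8% (nucleolar) and 33.3% (nucleolar hosts). Of 24 genes that control elongation by RNA polymerase II, 4 rose, 3 fell and 17 did not pass, with a median of -0.01 (-0.05 to 0.04), a sign that 9 of 23 alternatives turned. POLR2A, the largest subunit of the enzyme, was 748 to 824 CPM with a median of 809.7 in Ctrl60 and 1010.5 to 1168 CPM with a median of 1138 in hypg60. Again the ranges were separate (0.44, SE 0.07, adjusted p = 2.5e-04; 0.29 with the GC offset). HEXIM2, an inhibitor of the pause release kinase, rose by 0.39 ± 0.11 (0.24 with the GC offset). Of 19 tested spliceosomal snRNAs and RNAs of 7SK and the signal recognition particle, 1 rose, 9 fell and 9 did not pass, with a median of -0.28 (-0.56 to -0.16), families of near-identical copies whose counts per gene are uncertain. RNU5A-1 was 16.7 to 22.5 CPM in Ctrl60 and 4.33 to 7.97 CPM in hypg60 (-1.58, SE 0.14, adjusted p = 3.9e-06), RNU4-2 was at -0.77 (SE 0.11, adjusted p = 1.4e-04) and RN7SL1 at -0.04 (SE 0.16, adjusted p = 0.86), or 0.06 without hypg60 replicate 44 and 0.03 without hypg60 replicate 45. RN7SL1 passed with surrogate variables (-0.33). Of 101 tested small nucleolar RNAs, 8 rose, 16 fell and 77 did not pass, with a median of -0.02 (-0.30 to 0.06), a sign that 10 of 23 alternatives turned, and of 24 tested host genes of such RNAs, 7 rose, 1 fell and 16 did not pass, with a median of 0.10 (0.05 to 0.16), among them SNHG20 at 0.50 (SE 0.09, adjusted p = 8.4e-04).

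Lists of genes of division and of the nucleus follow, beside 17.1% higher and 13.0% lower among all genes tested. Of 40 centromere and spindle genes, 0 rose, 22 fell and 18 did not pass, with a median of -0.40 (-0.53 to -0.25). CKAP2, a microtubule protein of the spindle, was 27.5 to 44.2 CPM with a median of 31.2 in Ctrl60 and 13.6 to 28.5 CPM with a median of 15.3 in hypg60. The groups overlapped through hypg60 replicate 44 (-1.01, SE 0.15, adjusted p = 2.4e-04; -1.17 without it). CENPF, of the kinetochore, fell by 0.85 (SE 0.22), and by more, -0.98, without hypg60 replicate 44. Of 34 DNA replication genes, 1 rose, 7 fell and 26 did not pass, with a median of -0.14 (-0.19 to -0.09), with MCM6, of the replicative helicase, at -0.47 (SE 0.07, adjusted p = 1.6e-04) and PCNA, its sliding clamp partner, at -0.38 (SE 0.06, adjusted p = 4.8e-04). Of 19 cohesin, condensin and CTCF genes, 0 rose, 4 fell and 15 did not pass, with a median of -0.27 (-0.39 to -0.14), with NCAPH, of condensin, at -0.27 (SE 0.04, adjusted p = 2.9e-04). Of 61 tested replication-dependent histone genes, near-identical copies as well, 0 rose, 1 fell and 60 did not pass, with a median of -0.02 (-0.26 to 0.09), a sign that 6 of 23 alternatives turned. H1-5, the member with the most counts, was at -0.09 (SE 0.14, adjusted p = 0.67), or 0.02 without hypg60 replicate 44, and passed with surrogate variables (-0.34). Of 17 genes of the nuclear lamina and of the linker between nucleus and cytoskeleton, 2 rose, 2 fell and 13 did not pass, with a median of -0.12 (-0.22 to -0.08). Of 177 tested zinc finger genes of chromosome 19, 35 rose, 16 fell and 126 did not pass, with a median of 0.01 (-0.07 to 0.09), a sign that 10 of 23 alternatives turned, with ZNF587B at 0.76 (SE 0.07, adjusted p = 3.4e-06).

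Of 14 tested channels that open under membrane tension or swelling, 2 rose, 0 fell and 12 did not pass, with a median of -0.05 (-0.11 to 0.01); the median turned without Ctrl60 replicate 9 (0.01), hypg60 replicate 44 (0.01) or hypg60 replicate 45 (0.01). PIEZO1, a cation channel gated by stretch, was 395 to 438 CPM with a median of 403 in Ctrl60 and 474 to 602 CPM with a median of 531 in hypg60. All 6 hypg60 libraries were above the Ctrl60 range (0.37, SE 0.06, adjusted p = 5.0e-04; 0.20 with the GC offset). TMEM63A, another tension-gated channel, rose by 0.32 ± 0.06 without overlap (0.21 with the GC offset and 0.21 with surrogate variables). Of 28 actin genes and targets of serum response factor, 1 rose, 10 fell and 17 did not pass, with a median of -0.16 (-0.21 to -0.13). The actin list was called at 39.3% and the channels at 14.3%, beside 30.1% of all genes tested. TMSB4X, which binds actin monomers, was 704 to 729 CPM with a median of 712 in Ctrl60 and 458 to 627 CPM with a median of 512 in hypg60. The groups did not overlap (-0.48, SE 0.06, adjusted p = 3.5e-05). EZR, the linker of membrane and actin, fell by 0.38 (SE 0.07), and neither TMSB4X nor EZR was called in the model over all 60 libraries (-0.48 and -0.37), though both were without hypg15 replicate 75 (-0.49 and -0.39). ACTB was at -0.02 (SE 0.10, adjusted p = 0.92), a value whose sign 7 of 23 alternatives turned.

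Of 17 tested integrins and adhesion genes, 3 rose, 1 fell and 13 did not pass, with a median of -0.12 (-0.16 to -0.06), with ITGAL, the alpha chain of LFA-1, at 0.33 (SE 0.06, adjusted p = 0.0013), a call that ended with the length offset (0.34), while the value was 0.18 with the GC offset. Of 7 tested YAP and TEAD targets, 1 rose, 0 fell and 6 did not pass, with a median of 0.07 (-0.04 to 0.16), or -0.04 with the GC offset, the riser being AJUBA, an adaptor at cell junctions (0.28, SE 0.06, adjusted p = 0.003; 0.16 with the GC offset). Of 22 genes of the T cell receptor and its near signalling, 1 rose, 4 fell and 17 did not pass, with a median of -0.08 (-0.15 to -0.03). Called shares were 23.5% for adhesion, 14.3% for YAP, 22.7% for receptor and 31.6% for calcium genes, beside 30.1% of all genes tested. PTPRC (CD45), the phosphatase that keeps LCK active, was 71.9 to 147 CPM with a median of 83.0 in Ctrl60 and 43.7 to 102 CPM with a median of 48.2 in hypg60. It fell with overlap through hypg60 replicate 44 (-0.82, SE 0.19, adjusted p = 0.0053; -1.02 without it). CD2, an adhesion receptor, fell by 0.42 (SE 0.07), LAT, the adaptor that relays the receptor's signal, rose by 0.81 ± 0.15 (0.53 with surrogate variables), and LCK was at -0.06 (SE 0.09, adjusted p = 0.63), or 0.00 without hypg60 replicate 44, and passed with surrogate variables (-0.15). Of 19 genes of calcium entry, calcineurin and NFAT, 4 rose, 2 fell and 13 did not pass, with a median of 0.07 (0.02 to 0.11).

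Of 489 tested genes named as antisense to another gene, 127 rose, 21 fell and 341 did not pass, with a median of 0.17 (0.09 to 0.23), and of 219 tested LINC genes, 66 rose, 8 fell and 145 did not pass, with a median of 0.21 (0.14 to 0.28). The shares called were 30.3% and 33.8%, near the 30.1% of all genes tested. Of all genes tested, 17.1% were higher and 13.0% lower. MZF1-AS1 was 10.6 to 12.0 CPM with a median of 11.0 in Ctrl60 and 20.6 to 29.6 CPM with a median of 26.1 in hypg60. The groups did not overlap (1.18, SE 0.10, adjusted p = 3.2e-06), nor did those of SLC9A3-AS1 (1.42, SE 0.14, adjusted p = 5.9e-06) and LINC02482 (1.13, SE 0.11, adjusted p = 6.1e-06). Of 26 tested microRNA host genes, 7 rose, 2 fell and 17 did not pass, with a median of 0.16 (0.07 to 0.24), with MIRLET7BHG, host of let-7b, at 1.07 (SE 0.11, adjusted p = 9.3e-06) and MIR142HG, host of a microRNA of blood cells, at 0.83 (SE 0.12, adjusted p = 1.7e-04), or 0.54 with surrogate variables. Of 13 tested nuclear long noncoding RNAs, 4 rose, 0 fell and 9 did not pass, with a median of 0.16 (0.08 to 0.42), with MIAT at 0.55 (SE 0.11, adjusted p = 0.0019), or 0.31 with surrogate variables. NEAT1, the scaffold of paraspeckles, did not pass (0.30, SE 0.22, adjusted p = 0.34) but did without Ctrl60 replicate 9 (0.64), its highest Ctrl60 library. MALAT1, of nuclear speckles, was 393 to 981 CPM in Ctrl60 and 319 to 1508 CPM in hypg60 (0.03, SE 0.33, adjusted p = 0.95), with hypg60 replicate 44 far above the rest (-0.43 without it).

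**Figure D4:**
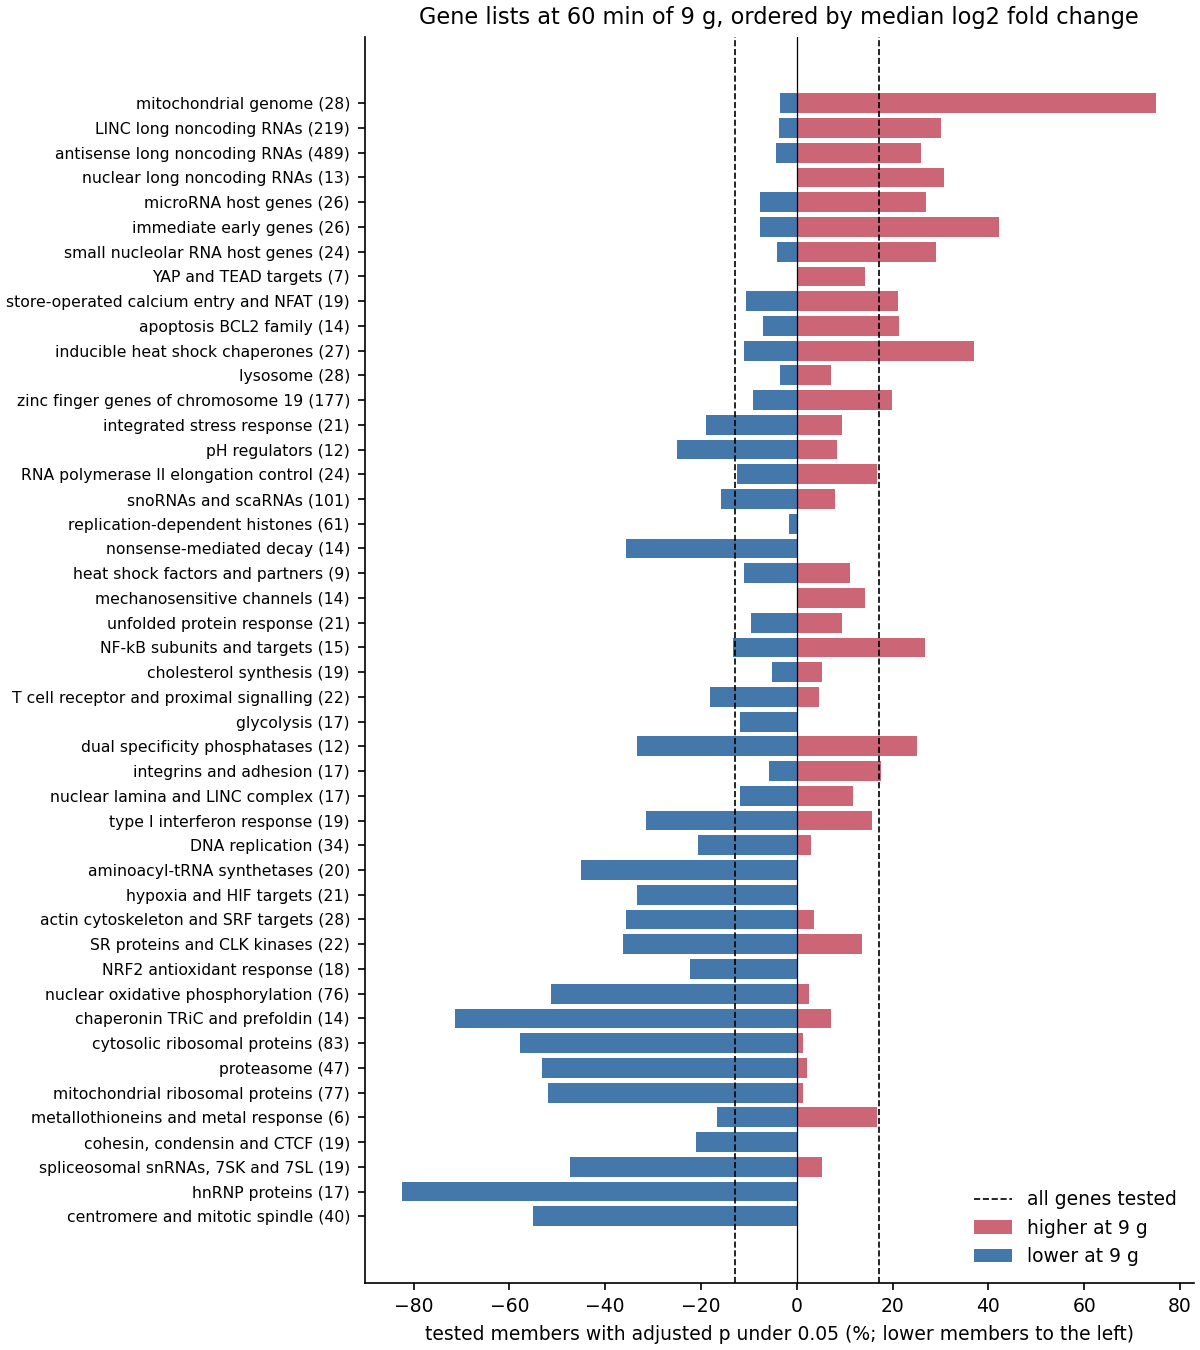
Bars give, for gene lists, the percentage of tested members that were higher (right) or lower (left) in hypg60, ordered by median log2 fold change with the number tested in brackets. The list of p53 targets is not shown. Dashed lines mark all genes tested, 17.1% higher and 13.0% lower, and the mitochondrial genome stands at one end with the centromere and hnRNP lists at the other.

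Among genes with at least 10 CPM and no overlap between groups, the 10 highest changes were those of HSPA1B, MT-ND6 and DNAJB1, given above, and of 7 more. UBAP1L was at 4.52 to 8.07 CPM in Ctrl60 and 16.3 to 22.3 CPM in hypg60 (1.62, SE 0.12, adjusted p = 1.4e-06). SLC23A1, a transporter of vitamin C, rose by 1.31 ± 0.11, and MZF1-AS1 by 1.18 ± 0.10. AMH, the anti-Müllerian hormone, NECAB3, BMP4, a morphogen of the TGF-beta family, and LTB4R, the leukotriene B4 receptor, rose by 1.15, 1.15, 1.12 and 1.12, with SE of 0.13, 0.12, 0.08 and 0.11. The 10 lowest were RNU5A-1 and EGR1, given above, and 8 more from ZC3H13, a part of the m6A methyltransferase complex, at -1.06 (SE 0.15, adjusted p = 1.7e-04), to GTF2A2, of transcription factor TFIIA, at -0.80 (SE 0.10, adjusted p = 3.7e-05). Between them lay ZCRB1 (-1.06 ± 0.16), of the minor spliceosome, RPL36AL (-0.87 ± 0.06), a ribosomal protein, SH3BGRL (-0.86 ± 0.14; -0.57 with the GC offset), IK (-0.84 ± 0.08), a splicing factor, PDCL3 (-0.81 ± 0.10), a chaperone of protein folding with TRiC, and the pseudogene NPM1P27 (-0.80 ± 0.11). The call of IK was not made in the model over all 60 libraries (-0.83), in which hypg15 replicate 75 has 0 counts on its chromosome 5, and was made without that library (-0.84).

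Whether the change at 60 min differs from that at 9 min was tested by the interaction of hypg60 and Ctrl60 with hypg9 and Ctrl, groups that share no libraries. Of 17078 genes, 348 (2.04%) differed, 296 (1.73%) with a higher and 52 (0.304%) with a lower value at 60 min, and 75 (0.439%) passed the stricter rule. The split was 170 and 21 without the filter on low counts, 357 and 85 by DESeq2 and 273 and 140 with the GC offset. Leaving out 1 library, tried after seeing the data, gave 863 genes (586 higher and 277 lower) without hypg60 replicate 44 and 204 (169 and 35) without hypg60 replicate 46. The lower count was also 34 without Ctrl60 replicate 7, 31 without Ctrl60 replicate 11 and 79 without hypg60 replicate 47. Of 27 inducible chaperones 9 differed upward and 0 downward, and of the mitochondrial genes 13 and 0, with median differences of 0.18 and 0.70. The summed mitochondrial level was 13271 to 15982 CPM in Ctrl and 11642 to 13839 CPM in Ctrl60. How much of the mitochondrial difference between times comes from the controls was not tested. HSPA1B was 9.39 to 12.3 CPM in Ctrl and 10.4 to 14.2 CPM in hypg9, a change of 0.13 ± 0.08 that did not pass, and the difference between times was 2.58 (SE 0.12, adjusted p = 3.6e-14). DNAJB1 (-0.12 ± 0.04 at 9 min, difference 1.59, SE 0.06, adjusted p = 3.6e-15) and HSPA6 (-0.18 ± 0.26 at 9 min, difference 4.26, SE 0.31, adjusted p = 1.2e-09) likewise did not pass at the earlier time. HSPA8 fell at 9 min (-0.15 ± 0.05) and rose at 60 min, with a difference of 0.51 (SE 0.08, adjusted p = 0.0012). KLF2, NFKBID and CLK1 also differed, by 0.77 ± 0.15, 0.51 ± 0.10 and 0.75 ± 0.15, and MT-CO1 by 0.47 ± 0.11. That of MT-CO1 was not called in 4 of the 24 fits with 1 library left out. RNU4-2 fell at both times (-1.26 ± 0.18 at 9 min), and its difference did not pass (0.50, SE 0.23, adjusted p = 0.34).

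In the fit of hypg9 against Ctrl, added beside the interaction, 3215 of 16385 genes (19.6%) were called, 1849 (11.3%) higher and 1366 (8.34%) lower, and 0.751% passed the stricter rule. Among 15944 genes tested at both times and after heat, 4783 were called at 60 min and 3185 at 9 min, with 2331 in both lists, 48.7% of the first and 73.2% of the second. Of these, 2329 had the same direction and 2 the opposite. Of the 27 chaperones tested at 60 min, 26 were tested at 9 min, where 0 rose and 10 fell. Of 28 mitochondrial genes tested at 9 min, 14 rose and 4 fell, with a median of 0.28.

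Heat at 42 degC, a known trigger of chaperone genes, was compared as well. It changed 3461 of 16655 genes (20.8%), 1770 (10.6%) higher and 1691 (10.2%) lower, of which 386 (2.32%) passed the stricter rule; the split was 2252 and 1173 by total counts, 1725 and 1749 with RLE size factors and 1437 and 1630 by DESeq2. HSPA1B was 15.4 to 17.5 CPM in A-Ctrl and 23.5 to 27.2 CPM in A-heat (0.63, SE 0.06, adjusted p = 2.4e-06), HSPA6 rose by 1.23 ± 0.20 and DNAJB1 by 0.17 ± 0.03. Of the 27 inducible chaperones tested after heat, 6 rose, 6 fell and 15 did not pass, with a median of -0.03. SERPINH1 (-0.09) and HSPA8 (-0.05) were among those that did not pass. The interaction with heat was called for 2339 of 17517 genes (13.4%), 1630 (9.31%) higher at 9 g and 709 (4.05%) lower, and 400 (2.28%) passed the stricter rule. HSPA1B, HSPA6 and DNAJB1 were among the first, with differences of 2.09 (SE 0.11, adjusted p = 3.1e-11), 2.88 (SE 0.27, adjusted p = 3.4e-07) and 1.31 (SE 0.07, adjusted p = 3.1e-11). Of the 27 chaperones 10 differed upward and 1 downward, and of 28 mitochondrial genes 18 and 1. Without hypg60 replicate 44 this interaction was called for 3923 genes, 2242 higher and 1681 lower, while the lower count was 462 without A-Ctrl replicate 52 and 470 without A-heat replicate 67. Of 60 histone genes tested after heat 51 fell, with a median of -0.29, beside 1 of 61 and -0.02 at 9 g (-0.26 with surrogate variables). Of 61 tested for the difference itself, 4 differed upward and 1 downward, with a median difference of 0.31. Of the 4783 genes called at 60 min of 9 g and the 3332 called after heat, 1469 were in both lists, 30.7% and 44.1%, with 1094 in the same and 375 in the opposite direction. Vessel, cell density and time differ between these experiments and cannot be told apart from the treatment.

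**Figure D5:**
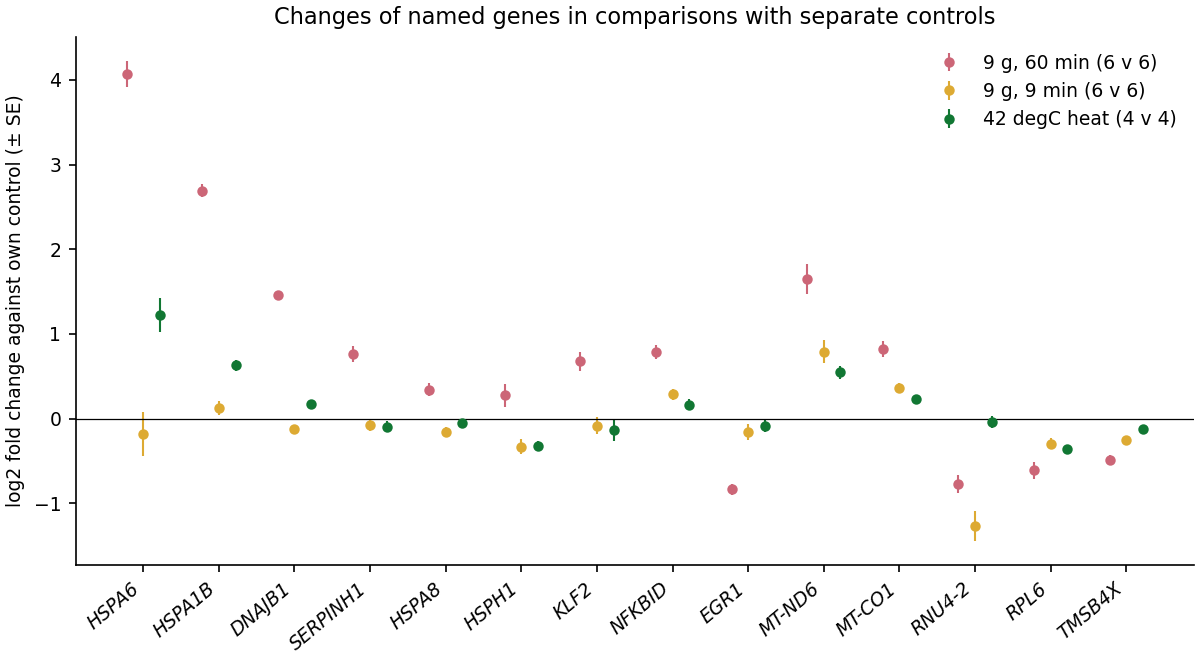
Points are log2 fold changes of named genes against their own controls with SE, for 60 min at 9 g (6 against 6 libraries), 9 min at 9 g (6 against 6) and heat at 42 degC (4 against 4). HSPA6, HSPA1B and DNAJB1 stand apart at 60 min, while RNU4-2 is lower at both times at 9 g and did not pass after heat.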

How the data were processed

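RNA was measured in 80 libraries of Jurkat cells, of which 12 enter the main comparison and 20 more the others. As deposited, the file holds raw counts of read pairs per gene that the authors made by trimming with Trim Galore 0.6.5, aligning with STAR 2.7.3a to GRCh38 and counting with featureCounts on the Ensembl annotation, release 104, with the strand option at 2. The labels give featureCounts 2.0.1 and the file header 2.0.3. The authors' own tests used DESeq2 1.28.1. Of the table, 3 lines that belong to 1 broken record, that of ANK2, were left out, which left 60663 genes, 42027 of them with a symbol and 58336 with a GC content.

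Libraries were grouped by treatment label. Genes were kept by filterByExpr of edgeR 4.0.16 (minimum count 10), scaled by TMM and tested by the quasi-likelihood F-test in R 4.3.3, with adjustment by Benjamini and Hochberg over all genes tested and calls at an adjusted p under 0.05. The stricter rule adds an absolute log2 fold change over 1. SE is the log2 fold change over the root of F. Differences between changes were tested as interaction contrasts. Total counts of 25769027 to 35705594 set the precision of low genes. Tables and figures used Python 3.11.15, pandas 2.3.3, numpy 2.4.6 and matplotlib 3.10.9. The code was tested on simulated data.

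Named genes were the 10 highest and 10 lowest changes among called genes with a symbol, at least 10 CPM on average and no overlap between groups, in each of 47 gene lists up to 4 members with the greatest absolute change among those called with at least 5 CPM, each list's member with the most counts, and genes set down by name. This gives 233 genes, and the text names part of them, chosen after the values were seen. Libraries and lists were chosen with earlier results of these data known. The strand split, gene kinds, GC and length descriptions and the separate fit of hypg9 against Ctrl were added after values were seen.

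Alternatives were no filter, RLE size factors, total counts, DESeq2 1.42.0, 1 model over all 60 libraries of the 9 g experiment, Ctrl as control, 3 surrogate variables (sva 3.50.0, seed 1), lowess offsets for GC content and exon length (span 0.3, prior count 2) and leaving out each library, the last for all comparisons but hypg9 against Ctrl, which was fitted without alternatives. The model without hypg15 replicate 75 and the fit without both hypg60 replicate 44 and Ctrl60 replicate 9 were chosen after seeing the data, as was leaving out each library in the difference from 9 min and in Ctrl60 against Ctrl.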

Additional observations from a re-analysis of the deposited data

Results flagged for a closer look

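In 226 tests of a named gene's CPM, or of a library measure, within a group of 6, a library's gap to the nearest other library was divided by the group's range, and 19 passed Dixon's critical value. Chance alone passes about 1 in 20 such groups. The library hypg60 replicate 44 accounts for 9 of the 19, being highest for ZC3H13 (0.734), IFI16 (0.734), HIF1A (0.697), PTPRC (0.823), CKAP2 (0.789), CENPF (0.8), MALAT1 (0.825) and HSPH1 (0.746), and lowest for ITGAL (0.628). The library Ctrl60 replicate 9 accounts for 5, being highest for UBAP1L (0.635), PIEZO1 (0.695), CLK1 (0.748) and NEAT1 (0.746), and lowest for ACTB (0.658). The rest were Ctrl60 replicate 12, lowest for the share of counts on RN7SL1 (0.688) and RN7SL1 (0.689), Ctrl60 replicate 10, lowest for POLR2A (0.757), hypg60 replicate 43, highest for IER2 (0.643), and hypg60 replicate 47, lowest for PFDN5 (0.669).

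The change at 60 min differed from that at 9 min, by a test of the difference itself, for 26 of the genes named. The difference in log2 was positive for LTB4R (0.61), BMP4 (0.89), NECAB3 (0.54), AMH (0.69), MZF1-AS1 (0.69), SLC23A1 (0.70), DNAJB1 (1.59), UBAP1L (0.92), HSPA1B (2.58), SERPINH1 (0.85), HSPA8 (0.51), KLF2 (0.77), NFKBID (0.51), NPC1 (0.24), CLK1 (0.75), MT-ND5 (0.71), MT-ND4L (0.80), MT-CO1 (0.47), LINC02482 (0.60), SLC9A3-AS1 (0.88), HSPA1A (2.86), HSPA6 (4.26) and PHF13 (0.28). It was negative for RPL36AL (-0.36), IK (-0.45) and EGR1 (-0.67). For EGR1 and PHF13 the controls themselves differed, Ctrl60 against Ctrl being at 1.16 and -0.28. By median, the summed mitochondrial level was also lower in Ctrl60 (12847 CPM) than in Ctrl (14962 CPM), with ranges that overlap. Against Ctrl at both times, EGR1 was at 0.33 at 60 min and -0.15 at 9 min, so the sign of its difference depends on the control. In the 24 fits with 1 library left out, tried after seeing the data, the difference was not called for NECAB3 in 18 and for MT-CO1 in 4, and was called for the other 24 genes in each. Each gene in these lists was picked at an adjusted p under 0.05 over all genes tested.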

How the results depend on the processing

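Of the alternatives for counts of genes, 95 stayed within 1.5 times the value reported and 9 did not. Ctrl60 against Ctrl gave 7 genes by total counts and 11 by DESeq2, the difference between 60 min and 9 min gave 191 without a filter and 204 to 863 with 1 library left out, Ctrl60 against Ctrl gave 1 to 3 with 1 library left out, and the difference from heat ran from 1734 to 3923 with 1 library left out. For list medians, 1032 stayed within their spread, 46 moved further with the same sign and 3 moved further and changed sign: with the GC offset the integrated stress response was at -0.10, the lysosome at -0.0765 and the BCL2 family at -0.0915. For named genes, 2352 kept direction and side of the threshold, 38 lost a call, 36 gained one and 35 changed direction. The cause was not tested. The model over all 60 libraries holds hypg15 replicate 75. That library has 0 counts on chromosomes 5 and MT, where its 5 fellow libraries have 705770 to 833626 and 427924 to 877714.

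Against Ctrl, EGR1 was at 0.33, ACTB at 0.0107, ATF4 at -0.0051 and ATF3 at -0.0281. By total counts ACTB was at 0.0167. With hypg60 replicate 44 and Ctrl60 replicate 9 both left out, chosen after seeing the data, ACTB was at 0.0227, H1-5 at 0.024, RN7SL1 at 0.0685 and MALAT1 at -0.21. With surrogate variables HSP90AA1 was at 0.0496, HSF1 at -0.0444, FOS at -0.0075 and ATF3 at -0.0025. With the GC offset HSPE1 was at -0.0457, HSF1 at -0.10, ATF4 at -0.12 and ATF3 at -0.0091. With the length offset HSPE1 was at -0.0498, ATF4 at -0.0219 and MALAT1 at -0.0256. Of these, EGR1 alone was a called gene. With 1 library left out, values ran over -0.12 to 0.0016 for GAPDH, -0.12 to 0.0044 for LCK, -0.0587 to 0.0501 for ACTB, -0.21 to 0.0191 for H1-5, -0.15 to 0.0646 for RN7SL1, -0.43 to 0.31 for MALAT1, -0.0035 to 0.0707 for ATF4 and -0.0058 to 0.0585 for ATF3.

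Depth limits low genes: 3 counts in the smallest library are 0.116 CPM.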

Other observations

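By kind of gene, looked at after the values were seen, the calls split as follows: of 12232 protein-coding genes 1649 rose and 1893 fell, with a median of -0.06, of 1082 antisense genes 335 rose and 35 fell, with a median of 0.22, of 823 long intergenic noncoding genes 241 rose and 17 fell, with a median of 0.24, of 255 sense intronic genes 81 rose and 4 fell, with a median of 0.40, and of 451 processed pseudogenes 50 rose and 94 fell, with a median of -0.17. Called shares of these kinds were 29.0%, 34.2%, 31.3%, 33.3% and 31.9% in that order, near the 30.1% of all genes tested. Of all genes tested, 17.1% were higher and 13.0% lower. The median of the mean level was 5.14 CPM among the higher genes and 23.9 CPM among the lower.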
